A study of Bos taurus with 9 samples.

Results

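The genes described here encode the WNT ligands, their frizzled (FZD) receptors, and 2 families of secreted antagonists, the secreted frizzled-related proteins (SFRP) and the Dickkopf proteins (DKK). They were taken as every gene in the count table whose symbol starts with WNT, FZD, SFRP or DKK followed directly by a digit, whatever its counts. This gave 37 of 30641 genes, made up of 19 WNT, 10 FZD, 4 SFRP and 4 DKK genes. Of these 37, 24 had enough counts to be tested, among 14874 genes tested in all.

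The 9 RNA-seq libraries came from cultured bovine cells labelled as endometrial epithelium, with 3 groups of 3 libraries. Untreated control cells received nothing. The reagent alone group received the transfection reagent jetMESSENGER at 24 hours after seeding. The DPPA3 mRNA group received jetMESSENGER with 500 ng of DPPA3 mRNA made in vitro, at the same time, and DPPA3 encodes a maternal factor of the oocyte and early embryo. All 3 groups grew in the same endometrial cell medium, no group received another mRNA, and the labels name neither donor animals nor separate cultures, so the spread behind the p-values may be purely technical.

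WNT ligands are lipid-modified secreted proteins. At the cell surface they bind a frizzled receptor, which signals with LRP5 or LRP6 to stabilise beta-catenin, or with co-receptors such as ROR2 to act on cell polarity and calcium. SFRPs bind WNTs outside the cell, and DKK1, DKK2 and DKK4 bind LRP5 and LRP6. In the ruminant uterus this pathway is known for its part in the growth of endometrial glands and in the preparation of the endometrium for pregnancy.

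Total counts ran from 3890134 (reagent alone replicate 1) to 13258036 (DPPA3 mRNA replicate 1). DPPA3 had 126334 to 213790 counts in each DPPA3 mRNA library and at most 2 in any other library. Untreated control replicate 1 stood apart, with a TMM scaling factor of 0.856 where the other libraries had 1.001 to 1.051. The epithelial label was checked against marker genes. The keratins KRT8 (3802 to 4995 CPM) and KRT19 (2196 to 2872 CPM) were abundant in all 9 libraries, and CDH1, the epithelial cadherin, lay at 37.6 to 58.7 CPM. Over all 9 libraries together EPCAM had 37 counts, CLDN4 52, CLDN3 23, ESRP1 4 and GRHL2 0, so 5 of the 12 epithelial markers were not tested. All 10 stromal markers were tested. The collagen genes COL1A1, COL1A2 and COL3A1 lay at 8085 to 18918, 11063 to 16021 and 6031 to 10226 CPM. FN1, the fibronectin gene, lay at 17293 to 27968 CPM, VIM at 1321 to 1725 CPM and DCN at 89.3 to 259.7 CPM. LUM lay at 21.1 to 59.8 CPM, PDGFRA at 26.9 to 44.6 CPM and PDGFRB at 6.41 to 17.2 CPM. THY1 had 58 counts over all 9 libraries. Stromal genes were thus abundant beside the keratins, so these markers did not set the cells apart as epithelial only. CPM are counts scaled to a library size of 1000000, with TMM factors. These values are not divided by gene length, so levels are not compared between genes.

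Of the 19 WNT ligands 11 were tested, and WNT5A, WNT2B, WNT4, WNT9A and WNT11 lay at 9.95 CPM or more in every library. WNT5A, which signals mainly through ROR receptors rather than beta-catenin, measured 334, 222 and 239 CPM in untreated control replicates 1 to 3, 347, 197 and 217 with reagent alone and 365, 235 and 234 with DPPA3 mRNA. In each group replicate 1 was the highest library and the groups overlapped. WNT2B, a ligand of the beta-catenin pathway, measured 307, 227 and 271 CPM in untreated control replicates 1 to 3, 241, 213 and 213 with reagent alone and 276, 221 and 235 with DPPA3 mRNA. Its highest library was untreated control replicate 1, and the groups overlapped. WNT4, which is needed for development of the female reproductive tract and for stromal differentiation of the uterus, measured 136, 57.7 and 85.1 CPM in untreated control replicates 1 to 3, 72.7, 50.4 and 67.7 with reagent alone and 78.9, 51.1 and 74.02 with DPPA3 mRNA. Untreated control replicate 1 was again the highest, and replicate 2 the lowest library of each group.

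WNT9A measured 39.5, 36.05 and 34.2 CPM in untreated control replicates 1 to 3, 27.1, 38.5 and 31.7 with reagent alone and 29.6, 36.3 and 33.4 with DPPA3 mRNA. WNT11, a ligand of cell polarity, measured 19.2, 15.05 and 15.4 CPM in untreated control replicates 1 to 3, 10.2, 18.95 and 13.9 with reagent alone and 9.95, 15.1 and 16.3 with DPPA3 mRNA. These 2 genes varied by 1.46-fold and 1.93-fold between their highest and lowest library, with no separation of the groups. WNT7B, an epithelial ligand in many organs, measured 13.1, 5.95 and 7.33 CPM in untreated control replicates 1 to 3, 3.74, 6.02 and 5.67 with reagent alone and 6.94, 3.97 and 4.84 with DPPA3 mRNA. WNT8B measured 2.901, 6.604 and 6.45 CPM in untreated control replicates 1 to 3, 3.98, 5.57 and 4.96 with reagent alone and 3.47, 5.24 and 3.65 with DPPA3 mRNA. Untreated control replicate 1 was the highest library for WNT7B and the lowest for WNT8B.

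The remaining tested ligands were low, and each lay near or below the level that 3 counts give in at least 1 library. That level was 0.226 to 0.747 CPM, depending on the library. Their highest count was 34, for WNT5B in untreated control replicate 3. WNT5B, the closest relative of WNT5A, measured 2.42, 0.217 and 3.32 CPM in untreated control replicates 1 to 3, 0.996, 1.796 and 2.36 with reagent alone and 1.13, 2.26 and 1.698 with DPPA3 mRNA. WNT2 measured 1.13, 1.84 and 1.37 CPM in untreated control replicates 1 to 3, 0.996, 1.796 and 0.158 with reagent alone and 0.452, 1.63 and 1.78 with DPPA3 mRNA. WNT10A measured 3.06, 0.758 and 1.66 CPM in untreated control replicates 1 to 3, 2.24, 0.359 and 0.473 with reagent alone and 1.06, 0.632 and 0.679 with DPPA3 mRNA. WNT10B had 0 to 17 counts in a library and 76 in all. For these 4 ligands the 3 groups overlapped, so no order of the groups can be read.

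The other 8 WNT genes were not tested. WNT3A had 0 counts in every library, WNT3 1 count, WNT8A 2, WNT9B 3, WNT1 7, WNT7A 10, WNT16 11 and WNT6 45, all summed over the 9 libraries. WNT7A, the ligand of the uterine luminal epithelium, had at most 3 counts in a library, which is no more than the limit set for a count of 0. WNT6 had 8, 6 and 16 counts in untreated control replicates 1 to 3, 3, 0 and 3 with reagent alone and 8, 1 and 0 with DPPA3 mRNA, that is 1.17 ± 0.469, 0.328 ± 0.382 and 0.231 ± 0.325 CPM (mean ± SD, n = 3). These counts were too few for the test.

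In RefSeq (assembly ARS-UCD2.0, used here only for which genes lie next to each other) all 37 symbols were found, and 8 WNT genes formed 4 pairs of direct neighbours. WNT9A, at 27.1 to 39.5 CPM, lies next to WNT3A, which had 0 counts. WNT10B (76 counts in all) neighbours WNT1 (7), WNT10A (91) neighbours WNT6 (45), and WNT3 (1) neighbours WNT9B (3). Of the 37 genes 7 overlap another annotated gene. WNT2B overlaps ST7L (3842 counts in all), WNT5B overlaps FBXL14 (3982) and WNT5A overlaps the noncoding LOC104975559 (5359). The strand setting of the counting is not given in the sources used here. The split of reads within these pairs is therefore uncertain, above all for WNT5B, with 165 counts.

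Of the 10 frizzled receptors 9 were tested, and FZD10 had 0 counts in every library. FZD1, FZD2 and FZD7 form one subfamily by sequence. FZD7 measured 268, 145 and 132 CPM in untreated control replicates 1 to 3, 211, 148 and 107 with reagent alone and 194, 137 and 155 with DPPA3 mRNA. FZD1 measured 59.3, 42.9 and 35.6 CPM in untreated control replicates 1 to 3, 44.3, 47.8 and 30.9 with reagent alone and 52.6, 40.5 and 37.8 with DPPA3 mRNA. FZD2 measured 38.99, 28.3 and 28.8 CPM in untreated control replicates 1 to 3, 21.4, 22.8 and 18.8 with reagent alone and 23.3, 28.9 and 25.97 with DPPA3 mRNA. Untreated control replicate 1 was the highest of the 9 libraries for all 3 genes. Of the 3 genes only FZD2 separated the groups, as all reagent alone libraries lay below all libraries of the other groups.

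FZD3 and FZD6, the receptors best known for planar cell polarity, form another subfamily. FZD3 measured 14.3, 33.3 and 23.7 CPM in untreated control replicates 1 to 3, 31.9, 43.1 and 28.8 with reagent alone and 22.4, 47.1 and 21.5 with DPPA3 mRNA. FZD6 measured 23.7, 62.6 and 36.5 CPM in untreated control replicates 1 to 3, 65.5, 76.1 and 60.97 with reagent alone and 50.4, 67.3 and 52.03 with DPPA3 mRNA. For both genes untreated control replicate 1 was the lowest of the 9 libraries, opposite to FZD1, FZD2 and FZD7. FZD4, which also binds the ligand norrin, measured 73.96, 54.3 and 58.2 CPM in untreated control replicates 1 to 3, 69.7, 71.05 and 65.1 with reagent alone and 70.05, 69.7 and 57.4 with DPPA3 mRNA. It varied by 1.36-fold over the 9 libraries.

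The remaining receptors were FZD8, FZD5 and FZD9. FZD8 measured 40.3, 16.8 and 20.1 CPM in untreated control replicates 1 to 3, 13.7, 18.4 and 11.03 with reagent alone and 28.95, 18.9 and 14.1 with DPPA3 mRNA. Its subfamily partner FZD5 measured 1.93, 1.73 and 1.96 CPM in untreated control replicates 1 to 3, 2.99, 2.43 and 2.05 with reagent alone and 2.56, 1.17 and 2.97 with DPPA3 mRNA. FZD9 measured 5.96, 2.27 and 2.54 CPM in untreated control replicates 1 to 3, 3.24, 1.26 and 0.867 with reagent alone and 4.37, 1.99 and 3.395 with DPPA3 mRNA. For FZD8 and FZD9 the highest library was untreated control replicate 1 and the lowest was reagent alone replicate 3.

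Among the antagonists SFRP2, SFRP5, DKK2 and DKK3 were tested. SFRP2 measured 3791, 3211 and 3427 CPM in untreated control replicates 1 to 3, 2956, 3332 and 3224 with reagent alone and 3127, 3281 and 3128 with DPPA3 mRNA. It held 65.3% to 70.5% of the counts of all 37 genes in a library, a share of reads that is not corrected for gene length, and varied by 1.28-fold, the smallest range of the tested members. SFRP5 measured 147, 144 and 114 CPM in untreated control replicates 1 to 3, 88.6, 129 and 115 with reagent alone and 144, 137 and 124 with DPPA3 mRNA. Reagent alone replicate 1, the library with the fewest counts, was the lowest for both SFRP genes. The other 2 SFRP genes, SFRP1 and SFRP4, had 2 and 10 counts over all 9 libraries.

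DKK1, the best studied Dickkopf antagonist of LRP5 and LRP6, had 3 counts in reagent alone replicate 2 and 0 in each of the other 8 libraries, so it was not tested. A count of 0 allows up to 0.226 to 0.747 CPM in a library, for counting error only. DKK4 had 7 counts in all. DKK2 measured 41.3, 26.5 and 21.1 CPM in untreated control replicates 1 to 3, 31.4, 28.5 and 20.6 with reagent alone and 28.7, 26.4 and 26.7 with DPPA3 mRNA. DKK3, which differs from the other Dickkopf proteins in that it is not a typical LRP5 and LRP6 antagonist, measured 232, 331 and 316 CPM in untreated control replicates 1 to 3, 246, 357 and 325 with reagent alone and 266, 326 and 352 with DPPA3 mRNA. DKK2 was highest in untreated control replicate 1, whereas DKK3 was lowest there. Together the 37 genes took 0.464% to 0.493% of all counts in every library.

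**Figure D1:**
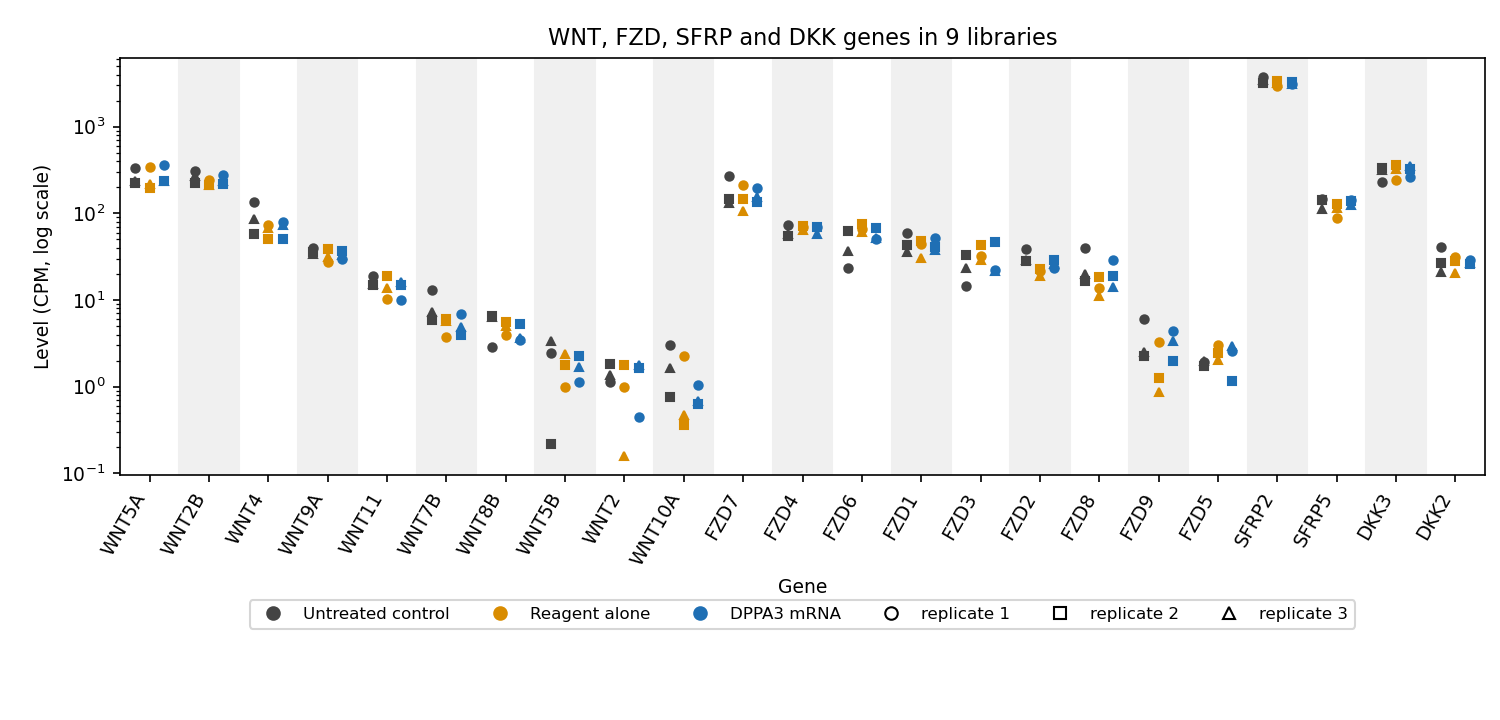
Level of the 23 members with a mean of at least 1 CPM (x axis) in each of the 9 libraries, in CPM on a log scale (y axis), with colour for the group and marker shape for the replicate number. For most genes the 3 colours overlap, and untreated control replicate 1 (dark circle) often lies at the top or bottom, as for FZD7 at 268 CPM and FZD6 at 23.7 CPM.

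Cells given DPPA3 mRNA were set against cells given the reagent alone, so that the groups differ in the mRNA. By edgeR's quasi-likelihood test 0 of the 24 tested members were called (p under 0.05 after Benjamini-Hochberg adjustment across the tested genes), where 0.00672% of all tested genes were called, and DESeq2 called 0 as well. At an unadjusted p under 0.05 there were 0 members, where the share of all genes was 1.67%. The median log2 fold change of the 24 members was 0.022, against 0.0027 over all genes tested, with 15 members above 0 and 9 below. FZD2 was the 1 member whose DPPA3 mRNA libraries all lay above all reagent alone libraries, as did 4.91% of all genes, and 0 members lay wholly below, as did 3.99%. FZD2 was at 26.1 ± 2.804 CPM under DPPA3 mRNA and 21.02 ± 2.02 CPM under reagent alone (mean ± SD, n = 3; edgeR log2 fold change 0.31 with SE 0.20 and adjusted p 0.9998), a gene named for its separation after its values were seen.

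WNT5A was at 278 ± 75.4 CPM under DPPA3 mRNA and 254 ± 81.6 CPM under reagent alone (mean ± SD, n = 3; edgeR log2 fold change 0.13 with 95% interval -0.39 to 0.66 and adjusted p 0.9998). The interval thus holds changes of WNT5A in either direction. Its log2 fold change turned to -0.11 without DPPA3 mRNA replicate 1 and to -0.019 without reagent alone replicate 2. FZD9 had the highest fold change of the family, at 3.25 ± 1.200 CPM under DPPA3 mRNA and 1.79 ± 1.27 CPM under reagent alone (mean ± SD, n = 3; edgeR log2 fold change 1.01 with 95% interval -0.28 to 2.30 and adjusted p 0.9998), and its groups overlapped. It was 1.61 without reagent alone replicate 1 and 0.64 without reagent alone replicate 3. For the 16 members with a mean of at least 10 CPM the log2 fold changes ran from -0.26 (FZD6) to 0.52 (FZD8), and the 95% intervals of single genes reached from -0.93 to 1.28. In bulk RNA a different number of expressing cells and a different amount of RNA per cell cannot be told apart.

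Setting DPPA3 mRNA against no treatment takes the reagent and the mRNA together. edgeR and DESeq2 both called 0 of the 24 members, and 0.0134% of all genes were called by edgeR. The share of genes with an unadjusted p under 0.05 was 3.91%, and 0 members had one. The median of the members was -0.13, against 0.0017 over all genes, with 8 members above 0 and 16 below. Without untreated control replicate 1 this median became 0.023, and without untreated control replicate 3 it was -0.21. Among the tested members 0 separated the groups, where 4.24% of all genes lay wholly higher and 3.86% wholly lower with DPPA3 mRNA.

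WNT5A was at 278 ± 75.4 CPM under DPPA3 mRNA and 265 ± 60.4 CPM under no treatment (mean ± SD, n = 3; edgeR log2 fold change 0.068 with 95% interval -0.46 to 0.59 and adjusted p 0.95). Number by number, WNT5A was higher with DPPA3 mRNA for numbers 1 and 2 and lower for number 3. Leaving out DPPA3 mRNA replicate 1, or untreated control replicate 2 or 3, turned its log2 fold change to -0.18, -0.043 and -0.00043. These omissions too left a replicate number without its counterpart. WNT10A had the lowest fold change, at 0.789 ± 0.232 CPM under DPPA3 mRNA and 1.83 ± 1.16 CPM under no treatment (mean ± SD, n = 3; edgeR log2 fold change -1.16 with 95% interval -2.86 to 0.54 and adjusted p 0.85). It had only 7 to 19 counts in a library of these groups. Its log2 fold change was -0.60 without untreated control replicate 1. For the 16 members with at least 10 CPM the log2 fold changes ran from -0.44 (WNT4) to 0.46 (FZD6), and the intervals reached from -1.06 to 1.07. The summed stromal markers did not overlap, at 52684 to 57792 CPM with DPPA3 mRNA and 58365 to 63668 CPM in untreated cells. The sum weighs genes by CPM, and FN1, COL1A2, COL1A1 and COL3A1 had the most, with untreated means of 23277, 14183, 13115 and 7930. Of the 10 stromal markers 4 had a fitted fold change above 0 and 6 below, and 0 were called. The summed epithelial markers overlapped, at 8795 to 9793 and 8930 to 11059 CPM. Whether these levels bear on the family's values was not tested.

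Reagent alone set against no treatment shows the family's values for the reagent without mRNA. edgeR called 0 members and 0 of all genes (0%), and DESeq2 called 0 members. An unadjusted p under 0.05 was found for 3 of the 24 members, a share close to the 10.2% of all genes. All 3 were frizzled receptors, which made up 9 of the 24. The median of the members was -0.16, against -0.0099 over all genes, with 6 members above 0 and 18 below. Without untreated control replicate 1 this median became -0.054, and without untreated control replicate 3 it was -0.25. All reagent alone libraries lay above the untreated controls for 1 member, FZD5, as for 6.92% of all genes, and below them for 1 member, FZD2, as for 7.21%. FZD5 was at 2.49 ± 0.473 CPM under reagent alone and 1.87 ± 0.123 CPM under no treatment (mean ± SD, n = 3; edgeR log2 fold change 0.38 with SE 0.51 and adjusted p 0.74), named for its separation after its values were seen.

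Of these 3 receptors FZD2 and FZD8 had fitted values below 0 and FZD6 above 0, and none passed the threshold. FZD2 was at 21.02 ± 2.02 CPM under reagent alone and 32.00 ± 6.06 CPM under no treatment (mean ± SD, n = 3; edgeR log2 fold change -0.60 with SE 0.20 and adjusted p 0.47). FZD8 was at 14.4 ± 3.74 CPM under reagent alone and 25.7 ± 12.7 CPM under no treatment (mean ± SD, n = 3; edgeR log2 fold change -0.83 with SE 0.36 and adjusted p 0.47). FZD6 was at 67.5 ± 7.75 CPM under reagent alone and 40.9 ± 19.8 CPM under no treatment (mean ± SD, n = 3; edgeR log2 fold change 0.72 with SE 0.28 and adjusted p 0.47), and its relative FZD3, named after its values were seen, at 34.6 ± 7.55 CPM under reagent alone and 23.8 ± 9.502 CPM under no treatment (mean ± SD, n = 3; edgeR log2 fold change 0.53 with SE 0.34 and adjusted p 0.502). Without untreated control replicate 1 the log2 fold changes shrank to -0.43 for FZD2, -0.35 for FZD8, 0.46 for FZD6 and 0.29 for FZD3. Without untreated control replicate 2 they were -0.68, -1.06, 1.16 and 0.85, and the smallest adjusted p of these 4 was then 0.060, for FZD6. FZD3 was at 0.34 without reagent alone replicate 2.

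WNT5A was at 254 ± 81.6 CPM under reagent alone and 265 ± 60.4 CPM under no treatment (mean ± SD, n = 3; edgeR log2 fold change -0.066 with 95% interval -0.59 to 0.46 and adjusted p 0.91). Number by number, WNT5A was higher with reagent alone for number 1 and lower for numbers 2 and 3. Its log2 fold change turned to 0.14 without untreated control replicate 1, and to 0.088 and 0.035 without reagent alone replicates 2 and 3. Here as well a replicate number lost its counterpart. FZD9 had the lowest fold change, at 1.79 ± 1.27 CPM under reagent alone and 3.59 ± 2.06 CPM under no treatment (mean ± SD, n = 3; edgeR log2 fold change -1.12 with SE 0.61 and adjusted p 0.47), which became -0.57 without untreated control replicate 1 and -1.73 without reagent alone replicate 1. WNT10A was at 1.02 ± 1.06 CPM under reagent alone and 1.83 ± 1.16 CPM under no treatment (mean ± SD, n = 3; edgeR log2 fold change -1.03 with SE 0.83 and adjusted p 0.58). This log2 fold change was -0.45 without untreated control replicate 1, and -2.07, -0.56 and -0.63 without reagent alone replicates 1, 2 and 3. The summed epithelial markers lay at 8591 to 8945 CPM with reagent alone and 8930 to 11059 CPM in untreated cells, and the summed stromal markers at 48892 to 62422 and 58365 to 63668 CPM. The part of these markers in the receptor values was not tested. The comparisons of DPPA3 mRNA and of reagent alone with untreated control share the same 3 control libraries.

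**Figure D2:**
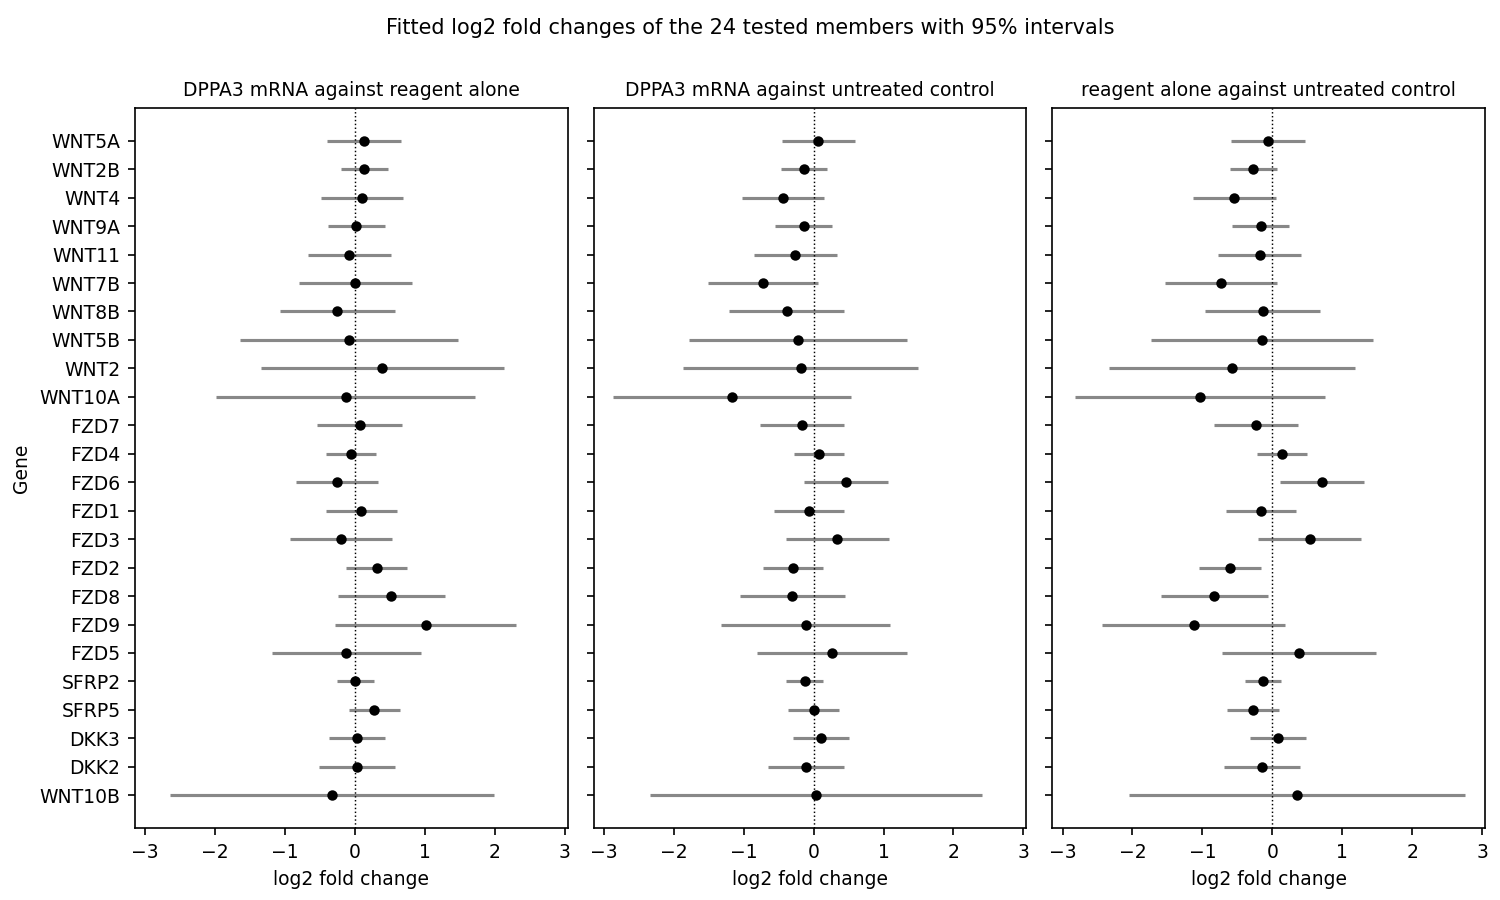
Log2 fold change (x axis) of each of the 24 tested members (y axis) in the 3 comparisons, with points for the fitted value and bars for its 95% interval. Points and bars come from the fit of group alone, without a term for replicate number. The intervals cross 0 for every member against reagent alone and for DPPA3 mRNA against untreated control, and FZD2, FZD6 and FZD8 are the 3 whose intervals do not cross it for reagent alone.

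The libraries of every group carry the replicate numbers 1 to 3, and the labels do not say what a number marks. Since WNT5A was highest in replicate 1 of each group, a term for the number was added to the fit of group after the values were seen. In this fit 3 of the 24 members passed the threshold (edgeR's quasi-likelihood F test, adjusted over all genes), where 1.47% of all genes did, and all 3 were higher in the libraries numbered 1. An unadjusted p under 0.05 was found for 11 members, against 19.8% of all genes.

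WNT5A lay at 334 to 365 CPM in the 3 libraries numbered 1 and at 197 to 239 CPM in the other 6. Its log2 difference was 0.64 (SE 0.10, edgeR adjusted p 0.014). Here and below, log2 difference and SE are for number 1 minus the mean of numbers 2 and 3. The adjusted p is for any difference among the 3 numbers, so it is not a test of that contrast. The WNT5A difference was 1.56-fold. Its equal direction in 3 of 3 groups is the observation for which the term was added, so it is not added support. Number 1 holds the library with the fewest counts and the one with the most. FZD7 lay at 194 to 268 CPM in the libraries numbered 1 and at 107 to 155 CPM in the others (log2 difference 0.70, SE 0.13, edgeR adjusted p 0.039). WNT4 passed by a narrow margin (log2 difference 0.55, SE 0.13, edgeR adjusted p 0.04999), and its libraries overlapped between the numbers, at 72.7 to 136 CPM and 50.4 to 85.1 CPM. For WNT4 numbers 2 and 3 differed as well, with a log2 of number 3 over number 2 of 0.50, which also enters its p. Without untreated control replicate 1 the log2 difference of WNT4 was smaller, at 0.34, with a lower adjusted p of 0.0097. WNT4 kept its call without reagent alone replicate 1 as well (adjusted p 0.021) and lost it without any 1 of the other 7 libraries.

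DKK3 went the other way without passing, at 232 to 266 CPM in the libraries numbered 1 and 316 to 357 CPM in the others (log2 difference -0.43, SE 0.10, edgeR adjusted p 0.0802). FZD3 was highest in number 2 of each group (log2 of number 2 over number 1 0.90, edgeR adjusted p 0.064, or 0.019 without untreated control replicate 1). All libraries numbered 1 lay above all others for 3 tested members, WNT5A, FZD7 and DKK2, as for 4.67% of all genes, and below them for DKK3 alone, as for 4.13%. SFRP2 lay at 2956 to 3791 CPM in the libraries numbered 1 and at 3128 to 3427 CPM in the others.

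The calls by replicate number changed when single libraries were left out. Leaving out 1 library at a time gave 0 to 5 called members, with 0 without untreated control replicate 3, DPPA3 mRNA replicate 1 or 2, or reagent alone replicate 3. WNT5A lost its call without untreated control replicate 3 (adjusted p 0.071), reagent alone replicate 3 (0.063), or DPPA3 mRNA replicate 1 (0.13), 2 (0.062) or 3 (0.074), while its log2 difference stayed between 0.59 and 0.69. Without untreated control replicate 1, the library with the low scaling factor, it was 0.69 (adjusted p 6.4e-04). Of the 10 stromal markers 0 were called with a log2 difference above 0 and 1 with one below 0. At an unadjusted p under 0.05 there were 5 above 0 and 4 below. That p is for any difference among the 3 numbers, so the sign does not give the difference behind it. LUM (log2 difference 0.10, SE 0.20), COL1A2 (-0.056, SE 0.090) and PDGFRA (-0.12, SE 0.14) were counted with differences smaller than their SE. The called marker was FN1, fibronectin, at 17293 to 19951 CPM in the libraries numbered 1 and 24026 to 27968 CPM in the others (log2 difference -0.48, SE 0.069, edgeR adjusted p 0.00997), and its call was lost (adjusted p up to 0.094) without untreated control replicate 3, reagent alone replicate 3, or DPPA3 mRNA replicate 1 or 3. All libraries numbered 1 lay above all others for the stromal VIM and COL3A1 and the epithelial KRT8, as for 4.67% of all genes. None of these genes was called. KRT8 lay at 4329 to 4995 CPM in the libraries numbered 1 and 3802 to 4324 CPM in the others. VIM lay at 1608 to 1725 CPM in the libraries numbered 1 and 1321 to 1569 CPM in the others, and COL3A1 at 7165 to 10226 and 6031 to 7163 CPM. The summed stromal list overlapped, at 48892 to 63668 and 54263 to 62422 CPM, as did the epithelial list, at 8591 to 11059 and 8621 to 9395.5 CPM. The immune markers, of which 2 of 5 were tested and PTPRC had 0 counts, did not overlap, at 2.87 to 4.48 CPM summed in the libraries numbered 1 and 4.99 to 7.47 CPM in the others, and the endothelial markers did, at 9.51 to 12.2 and 6.41 to 10.3 CPM. Their part in the difference was not tested.

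**Figure D3:**
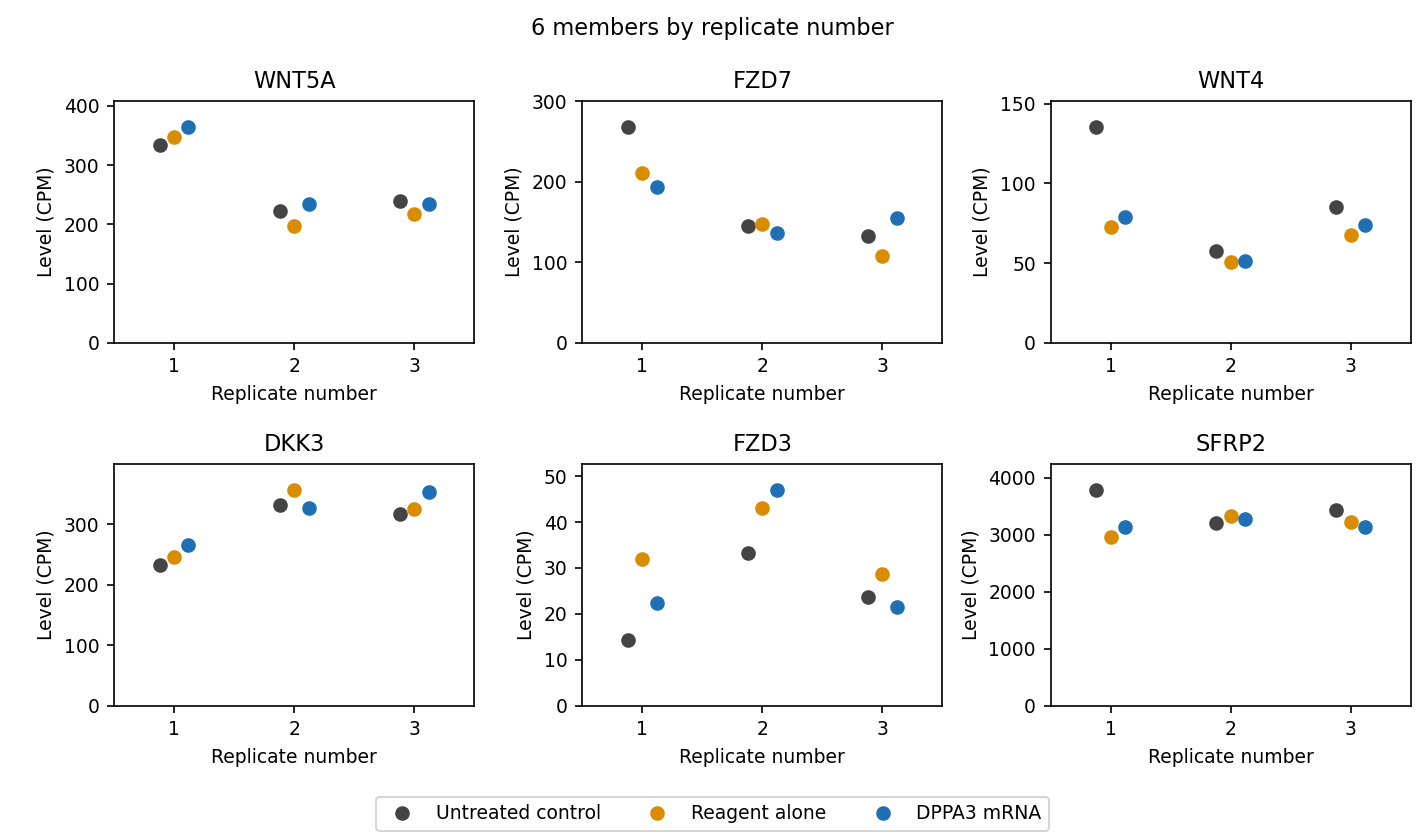
Level in CPM (y axis, from 0) of WNT5A, FZD7, WNT4, DKK3, FZD3 and SFRP2 by replicate number (x axis), 1 point per library and 1 colour per group. The 3 libraries numbered 1 lie between 334 and 365 CPM for WNT5A, above the other 6, and between 232 and 266 CPM for DKK3, below the other 6.

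The other genes of the pathway were read from 7 lists with 79 genes, of which 76 were in the table and 64 were tested. Against reagent alone 0 of the 64 were called, with 0 at an unadjusted p under 0.05 (1.67% of all genes) and a median log2 fold change of -0.011. For DPPA3 mRNA against untreated control 0 were called, with 1 higher and 1 lower at an unadjusted p under 0.05 (3.91% of all genes) and a median of -0.18. For reagent alone against untreated control 0 were called, with 0 higher and 6 lower at an unadjusted p under 0.05 and a median of -0.17. This count of 6 among 64 is close to the 10.2% of all genes, of which 629 were higher and 887 lower. The medians over all genes were 0.0027, 0.0017 and -0.0099.

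Of 6 listed genes of WNT production and release 4 were tested. WLS, which carries WNTs to the cell surface, had the smallest p of its list for the reagent, at 59.03 ± 1.36 CPM under reagent alone and 50.4 ± 11.2 CPM under no treatment (mean ± SD, n = 3; edgeR log2 fold change 0.23 with SE 0.18 and adjusted p 0.56). Leaving out untreated control replicates 1 and 2 in turn gave 0.11 and 0.42. NOTUM, a secreted enzyme that inactivates WNTs, had the smallest p of the list against reagent alone, at 0.822 ± 0.138 CPM under DPPA3 mRNA and 1.31 ± 0.788 CPM under reagent alone, and against no treatment, at 0.822 ± 0.138 CPM under DPPA3 mRNA and 1.44 ± 0.414 CPM under no treatment (mean ± SD, n = 3; edgeR adjusted p 0.9998 and 0.85). Its log2 fold change against reagent alone, -0.59, was -0.25 and -1.04 without reagent alone replicates 1 and 2. All 6 co-receptors and alternative receptors were tested. ROR1, a receptor for WNT5A, was at 10.7 ± 2.37 CPM under no treatment, 11.5 ± 2.52 CPM under reagent alone and 15.7 ± 1.91 CPM under DPPA3 mRNA (mean ± SD, n = 3). It was the list's gene with the smallest p in both comparisons of DPPA3 mRNA, its DPPA3 mRNA libraries lay above all others, and it was not called (log2 fold changes 0.44 and 0.56, edgeR adjusted p 0.9998 and 0.85). Of the 64 pathway genes 2 lay wholly higher and 1 wholly lower against reagent alone, as did 4.91% and 3.99% of all genes. Against untreated control 2 lay wholly higher and 4 wholly lower, as did 4.24% and 3.86% of all genes. PTK7, a co-receptor of cell polarity, was at 169.9 ± 8.26 CPM under reagent alone and 249 ± 96.8 CPM under no treatment (mean ± SD, n = 3; edgeR log2 fold change -0.55 with SE 0.25 and adjusted p 0.47), and its log2 fold change was -0.18 without untreated control replicate 1.

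R-spondins raise the number of frizzled receptors at the surface by removing the ubiquitin ligases RNF43 and ZNRF3. RSPO1, LGR4, RNF43 and ZNRF3 were tested, and RSPO2, RSPO3, RSPO4, LGR5 and LGR6 were not. RSPO1 was at 129 ± 23.99 CPM under no treatment, 96.9 ± 13.5 CPM under reagent alone and 115 ± 14.5 CPM under DPPA3 mRNA (mean ± SD, n = 3; edgeR adjusted p 0.9998 against reagent alone and 0.47 for the reagent). Its log2 fold change for the reagent, -0.41, was -0.27 without untreated control replicate 1, and that against reagent alone, 0.24, was 0.14 without reagent alone replicate 2. ZNRF3 had the smallest p of this list for DPPA3 mRNA against untreated control, with a log2 fold change of -0.38 that became 0.047 without untreated control replicate 1, -0.58 without untreated control replicate 2 and -0.60 without DPPA3 mRNA replicate 1. Of the 10 other antagonists FRZB, WIF1, SOST, SOSTDC1, CER1 and KREMEN2 were not tested. KREMEN1, the receptor that Dickkopf proteins use together with LRP6, was at 222 ± 4.899 CPM under DPPA3 mRNA and 262 ± 35.8 CPM under no treatment (mean ± SD, n = 3; edgeR log2 fold change -0.24 with SE 0.14 and adjusted p 0.85), and it had the smallest p for the reagent too, at 233 ± 16.8 CPM under reagent alone and 262 ± 35.8 CPM under no treatment (log2 fold change -0.17). Both shrank without untreated control replicate 1, to -0.12 and -0.0396. DKKL1, a Dickkopf-like protein, had the smallest p against reagent alone, at 27.01 ± 4.52 CPM under DPPA3 mRNA and 30.02 ± 3.34 CPM under reagent alone (log2 fold change -0.16). It was -0.27 and -0.031 without DPPA3 mRNA replicates 3 and 2, and -0.056 without reagent alone replicate 3.

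All 21 transducers were tested. The median log2 fold change of these 21 was 0.011 when DPPA3 mRNA was set against reagent alone. Relative to untreated cells it was -0.24 under DPPA3 mRNA and -0.22 under reagent alone. APC2, a relative of the destruction complex scaffold APC, had the smallest p for the reagent, at 49.9 ± 3.47 CPM under reagent alone and 76.8 ± 26.5 CPM under no treatment (mean ± SD, n = 3; edgeR log2 fold change -0.62 with SE 0.24 and adjusted p 0.47), and its log2 fold change was -0.30 without untreated control replicate 1. BCL9, a co-activator of beta-catenin, had the smallest p for DPPA3 mRNA relative to untreated cells, at 95.1 ± 13.1 CPM under DPPA3 mRNA and 120.2 ± 18.9 CPM under no treatment (mean ± SD, n = 3; edgeR log2 fold change -0.34 with SE 0.16 and adjusted p 0.85). GSK3B, the kinase that marks beta-catenin for destruction, had the smallest p against reagent alone, at 196 ± 9.95 CPM under DPPA3 mRNA and 221 ± 28.2 CPM under reagent alone (mean ± SD, n = 3; edgeR log2 fold change -0.18 with SE 0.15 and adjusted p 0.9998), and its log2 fold change was -0.071 without reagent alone replicate 1.

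Transcriptional targets give a readout of the beta-catenin branch. Of 12 listed targets 10 were tested, and 8 of these 10 had a fitted fold change below 0 under DPPA3 mRNA relative to untreated cells, where 7409 of the 14874 tested genes did. Under reagent alone 8 of the 10 were below 0 as well, where 7558 of all genes were, but not the same 8, since CD44 and TNFRSF19 differed in sign. The medians of the list were -0.26 and -0.23, and 0.051 for DPPA3 mRNA against reagent alone. AXIN2, a feedback inhibitor and a widely used readout of beta-catenin signalling, was at 36.2 ± 3.31 CPM under reagent alone and 58.8 ± 21.6 CPM under no treatment (mean ± SD, n = 3; edgeR log2 fold change -0.70 with SE 0.25 and adjusted p 0.47). Its log2 fold change without untreated control replicate 1 was -0.38, and without untreated control replicate 2 it was -0.93 (adjusted p 0.0599). CCND1, which encodes cyclin D1, was at 184 ± 25.2 CPM under no treatment, 151 ± 1.88 CPM under reagent alone and 156 ± 7.72 CPM under DPPA3 mRNA (mean ± SD, n = 3; edgeR adjusted p 0.85 and 0.47 against untreated control). MYC was at 118 ± 12.5 CPM under DPPA3 mRNA and 145 ± 32.3 CPM under no treatment (mean ± SD, n = 3; edgeR log2 fold change -0.29 with SE 0.17 and adjusted p 0.85). Leaving out untreated control replicate 1, the log2 fold change of MYC was -0.084, and those of CCND1, -0.24 and -0.28 under DPPA3 mRNA and reagent alone, became -0.12 and -0.16. Against reagent alone the smallest p values belonged to CD44 (log2 fold change -0.20) and TNFRSF19 (0.25), each with an edgeR adjusted p of 0.9998. CD44 was at -0.31 without DPPA3 mRNA replicate 1 and at -0.11 without reagent alone replicate 1, and TNFRSF19 was 0.094 without DPPA3 mRNA replicate 3.

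In the list of planar cell polarity and calcium signalling all 15 genes were tested. SCRIB, a polarity scaffold, had the smallest p in both comparisons with untreated control, at 187 ± 68.2 CPM under no treatment, 125 ± 0.797 CPM under reagent alone and 126 ± 11.5 CPM under DPPA3 mRNA (mean ± SD, n = 3; edgeR adjusted p 0.85 and 0.47). Its log2 fold changes of -0.57 and -0.58 became -0.24 and -0.24 without untreated control replicate 1. NFATC1, a transcription factor activated by calcium, had the smallest p against reagent alone, at 24.8 ± 2.28 CPM under DPPA3 mRNA and 20.1 ± 2.15 CPM under reagent alone (mean ± SD, n = 3; edgeR log2 fold change 0.31 with SE 0.27 and adjusted p 0.9998). By replicate number 1 of the 64 pathway genes passed the threshold, a share close to the 1.47% of all genes. It was DAAM2, a link between WNT receptors and the cytoskeleton, at 81.7 to 100.2 CPM in the libraries numbered 1 and 148 to 179.8 CPM in the others (log2 difference -0.86, SE 0.11, edgeR adjusted p 0.0057). Without DPPA3 mRNA replicate 1 the adjusted p of DAAM2 was 0.100.

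**Figure D4:**
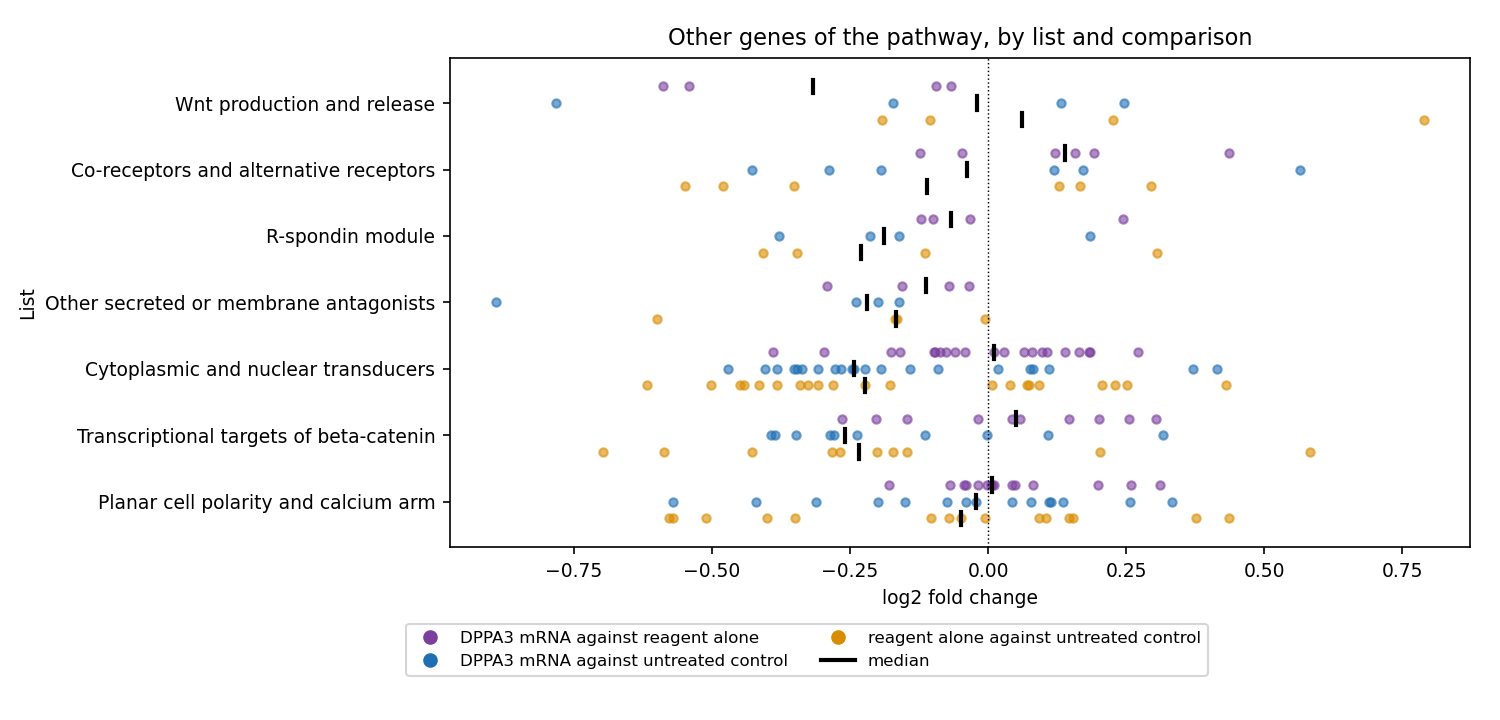
Log2 fold change (x axis) of each of the 64 tested pathway genes, by list (y axis) and comparison (colour), with black ticks at the list medians. The ticks of the beta-catenin targets lie at -0.26 and -0.23 in the comparisons with untreated control and at 0.051 against reagent alone.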

How the data were processed

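Libraries came from total RNA (IDT xGen kit, per the labels' protocols). The authors deposited raw read counts per gene symbol. Tools named in the submitters' processing notes are HISAT2, HTSeq, Trimmomatic and edgeR. Which tool did what, in which version, on which build and with which strand setting is not given in the sources used here. Coordinates are therefore left out. The members and the lists were chosen with earlier results of these data known.

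After filterByExpr, 14874 genes entered 1 quasi-likelihood fit of the 3 groups (edgeR 4.0.16, glmQLFit and glmQLFTest, TMM factors, R 4.3.3). Calls needed an adjusted p (Benjamini-Hochberg) under 0.05. Standard errors were obtained as the size of the log2 fold change over the root of F. A count of 0 was taken to allow up to 3 counts. Scripts were tested on simulated data. Replicates differed by more than sampling noise (chi-square per degree of freedom at least 13.4), so none was counted as a duplicate.

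Values in every library are given for members with a mean of at least 1 CPM. Fold changes are given for WNT5A, and where the unadjusted p was under 0.05 or the log2 fold change at least 1 in size at a mean of at least 1 CPM. For each pathway list the gene with the smallest p per comparison is named, with up to 2 for the targets. The replicate term and the genes said to be named for their values were added after the data were seen.

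Libraries of equal replicate number had deviations from their group means that correlated at 0.338, 0.320 and 0.125 between DPPA3 mRNA and untreated control, all over 0.1, so the numbers were taken to pair these samples, from the data and not from the labels. Unequal numbers of these groups correlated at -0.303 to 0.057. For reagent alone and DPPA3 mRNA, equal numbers correlated at 0.0862 to 0.144 and unequal ones at -0.103 to 0.013. For reagent alone and untreated control the values were 0.0935 to 0.153 and -0.146 to 0.042. Equal numbers thus lay above the unequal ones with reagent alone as well, though its lowest values were under 0.1. Results were recomputed with the DESeq2 1.42.0 test, with its size factors, without the filter, on only the 2 groups compared, with a replicate block, and leaving out each library. Fold changes, standard errors, intervals and p-values printed for the comparisons of groups come from the fit of group alone, without the block. Differences between replicate numbers are therefore part of the spread behind them. For the block only the calls are given, so how far it changes these intervals is not shown.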

Additional observations from a re-analysis of the deposited data

How the results depend on the processing

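In the 3 comparisons of groups the members called and the pathway genes called stayed at 0 under DESeq2 size factors, no filter, the DESeq2 Wald test, only the 2 groups compared, the replicate block, and with each library left out, so the block changed 0 of these calls. Over all genes, for DPPA3 mRNA against reagent alone, DPPA3 mRNA against untreated control and reagent alone against untreated control, calls numbered 1, 2 and 0; they became 66, 69 and 18 without the filter, 9, 10 and 2 by DESeq2, and 2, 7 and 0 under the replicate block; the cause was not tested.

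By replicate number 7 members were called with no filter and 6 with the DESeq2 likelihood ratio test, against 3, with 0 to 5 on leaving out any 1 library; 0 were called without untreated control replicate 3, DPPA3 mRNA replicates 1 or 2, or reagent alone replicate 3, and 5 without untreated control replicate 1 or reagent alone replicate 1. Over all genes 219 were called by number, 1615 with no filter and 1060 with DESeq2; the cause was not tested.

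Leaving out 1 library leaves its replicate number without a counterpart in the other group, and WNT5A differed by number. In such fits the log2 fold change of WNT5A changed sign, and the part of the number in this was not tested. It ranged from -0.11 to 0.42 for DPPA3 mRNA against reagent alone and from -0.18 to 0.27 for DPPA3 mRNA against untreated control. For reagent alone against untreated control it ranged from -0.35 to 0.14. The log2 fold change of ZNRF3 for DPPA3 mRNA against untreated control ranged from -0.60 to 0.047. The median of the members against reagent alone ranged from -0.039 to 0.10. With 3 libraries a group and 3890134 counts in the smallest, the intervals of members under 10 CPM are wide, and an adjusted p over the threshold does not show that a gene was unchanged.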
